A study of Mus musculus with 23 samples.

Results

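Prostaglandins, thromboxane and leukotrienes are short-lived lipid signals that cells make from arachidonic acid. The genes described here encode enzymes of their synthesis and inactivation, and an activating protein. They are the cyclooxygenases *Ptgs1* and *Ptgs2*, the prostaglandin and thromboxane synthases *Ptges*, *Ptgds*, *Hpgds* and *Tbxas1*, and the dehydrogenase *Hpgd*. The leukotriene branch adds *Alox5*, *Alox5ap*, which encodes the activating protein, and *Ltc4s*. All 10 genes were chosen by symbol and were found among the 27179 genes of the deposited count table. Cyclooxygenases turn arachidonic acid into an unstable endoperoxide, from which separate synthases make the individual prostaglandins and thromboxane, whereas lipoxygenase and its activating protein begin the leukotrienes. In liver, Kupffer cells and recruited leukocytes are major sources of these lipids, cells of the sinusoid respond to them, and hepatocytes take them up and inactivate them.

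The values are counts of poly(A) RNA reads per gene in liver tissue free of visible tumors from 15 female mice, studied to learn how hepatocyte BRAF V600E alters gene expression and what loss of *Icmt* changes. There were 6 Ctrl, 6 ABpI F/+ and 3 ABpI F/F mice. Total counts per mouse ran from 24742910 to 32262649, with a median of 29101713, and levels are given as CPM, each count over its library's scaled size. Changes are log2 fold changes from 1 edgeR fit of all 15 mice, with a call meaning an adjusted p below 0.01 and at least a 2-fold change.

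All 3 genotypes had *Trp53* flx/flx and a Cre transgene driven by the albumin promoter, which recombines floxed alleles chiefly in hepatocytes and, because albumin is also made by their embryonic precursors, to some degree in cholangiocytes. Recombination in each cell type was not measured here. Ctrl mice were wild type for *Braf* and carried *Icmt* flx/+, so floxed *Trp53* and at least 1 floxed copy of *Icmt* are common to all livers compared. ABpI F/+ mice added a *Braf* CA allele that expresses BRAF V600E after recombination, on the same *Icmt* flx/+ background, and ABpI F/F mice carried it with *Icmt* flx/flx. The labels write the *Braf* genotype of both groups as BRAF +/+, and they give no ages. By strain label, 5 Ctrl mice came from the *Icmt* by Alb-Cre line, whereas the Ctrl mouse BG3 and each mouse with the *Braf* CA allele came from its intercross with the *Braf* line, so strain and *Braf* genotype are largely tied to each other.

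*Icmt* RNA followed the genotypes. It averaged 30.8 ± 2.72 CPM in Ctrl mice (SD, n = 6), 32.7 ± 3.49 in ABpI F/+ mice (n = 6) and 15.8 ± 0.711 CPM in ABpI F/F mice (n = 3). The value of ABpI F/+ mice was 1.04 log2 units above that of ABpI F/F mice in edgeR (SE 0.126, adjusted p = 7.17e-06; 0.95 and not called with a clock gene component in the model), and that of ABpI F/F mice differed from Ctrl by -0.96 (SE 0.125, adjusted p = 8.51e-06), just under 2-fold. This difference was called with filterByExpr (-1.01), with strain label in the model (-1.13) and without BG175 (-1.02). *Braf* averaged 22.1, 26.1 and 21.4 CPM and was called in no comparison by edgeR. *Trp53* averaged 5.35, 13.9 and 10.7 CPM, and its rise in ABpI F/+ over Ctrl mice was 1.37 (adjusted p = 1.58e-07 by edgeR). The ABpI F/F difference from Ctrl was 0.99 (adjusted p = 0.000166), just under 2-fold, and was called on removal of any 1 of 5 mice (1.02 to 1.07). Counts over a whole gene do not show whether its floxed exons were deleted. The tissue label was matched by its hepatocyte markers, whose most abundant gene, *Alb*, averaged 89159 CPM in Ctrl, 153783 in ABpI F/+ and 144110 CPM in ABpI F/F mice, while the other 7 summed to 25860 CPM, 20423 CPM and 14032 CPM.

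*Ptgds* and *Hpgd* fell in both mutant genotypes. In ABpI F/+ livers, edgeR called 2 lower than in Ctrl, *Ptgds* and *Hpgd*, and 0 higher, beside 7.13% of the 20380 genes with a read called lower and 6.26% called higher. At an unadjusted p below 0.05, 0 of the 10 were higher and 5 lower, beside 22.2% and 22.4% of all genes, and DESeq2 called 0 higher and 2 lower, beside 8.10% and 9.78% of the 17257 genes to which it gave an adjusted p. In ABpI F/F livers 2 of the 10 were called lower than in Ctrl, *Ptgds* and *Hpgd*, and 2 higher, *Hpgds* and *Alox5*, beside 3.17% of all genes called lower and 6.06% called higher. At an unadjusted p below 0.05 these were 3 lower and 4 higher (14.8% and 20.4% of all genes), and DESeq2 called 2 lower and 2 higher (4.58% and 8.71% of 16869 genes). Between the mutant genotypes, 5 of the 10 were called lower in ABpI F/+ than in ABpI F/F livers (*Ptgs1*, *Ptgds*, *Tbxas1*, *Alox5* and *Alox5ap*) and 0 higher, beside 7.32% of all genes called lower and 2.35% called higher. At an unadjusted p below 0.05 that comparison had 1 of the 10 higher in ABpI F/+ mice and 7 lower, beside 15.8% and 21.5% of all genes, and DESeq2 called 0 higher and 6 lower, beside 3.74% and 11.2% of 16481 genes. The comparisons with Ctrl share the same 6 Ctrl mice. In bulk tissue, a lower level from fewer cells of a type and one from less RNA per cell cannot be told apart.

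The median log2 fold change of the 10 genes was -0.77 for ABpI F/+ against Ctrl, 0.48 for the same comparison of ABpI F/F, and -1.27 between ABpI F/+ and ABpI F/F. Without *Ptgs2*, which had too few counts for a fold, and with groups at 0 set to their limit, these medians were -0.76, 0.32 and -1.14. Over all genes with a read the medians were 0.00, 0.09 and -0.05. A single ABpI F/F mouse, BG38, decided several of these calls. Without it, edgeR called 2 of the 10 lower and 0 higher than Ctrl in ABpI F/F livers, beside 438 and 774 of the 20380 genes, and 0 in either direction between ABpI F/+ and ABpI F/F livers, beside 788 genes lower and 367 higher.

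A component of clock gene expression was nearly tied to the ABpI F/F genotype. It ran from -2.10 to -1.08 in the 3 ABpI F/F mice and from 0.417 to 0.645 in ABpI F/+ mice, and among Ctrl mice malpa387 alone (-1.63) lay below 0, so the 2 can hardly be told apart in a model. With this component as a covariate, edgeR called 0 of the 10 higher than Ctrl in ABpI F/F livers, beside 1.53% of all genes, and 0 lower in ABpI F/+ than in ABpI F/F livers, beside 0.388%. For the members whose calls ended, the fitted changes in this model follow, and the part of the clock was not tested. *Hpgds* and *Alox5* were then 1.74 and 5.30 log2 units above Ctrl in ABpI F/F livers, and the difference of ABpI F/+ from ABpI F/F livers was -0.98 for *Ptgs1*, -4.78 for *Ptgds*, -1.33 for *Tbxas1*, -5.16 for *Alox5* and -1.44 for *Alox5ap*.

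**Figure D1:**
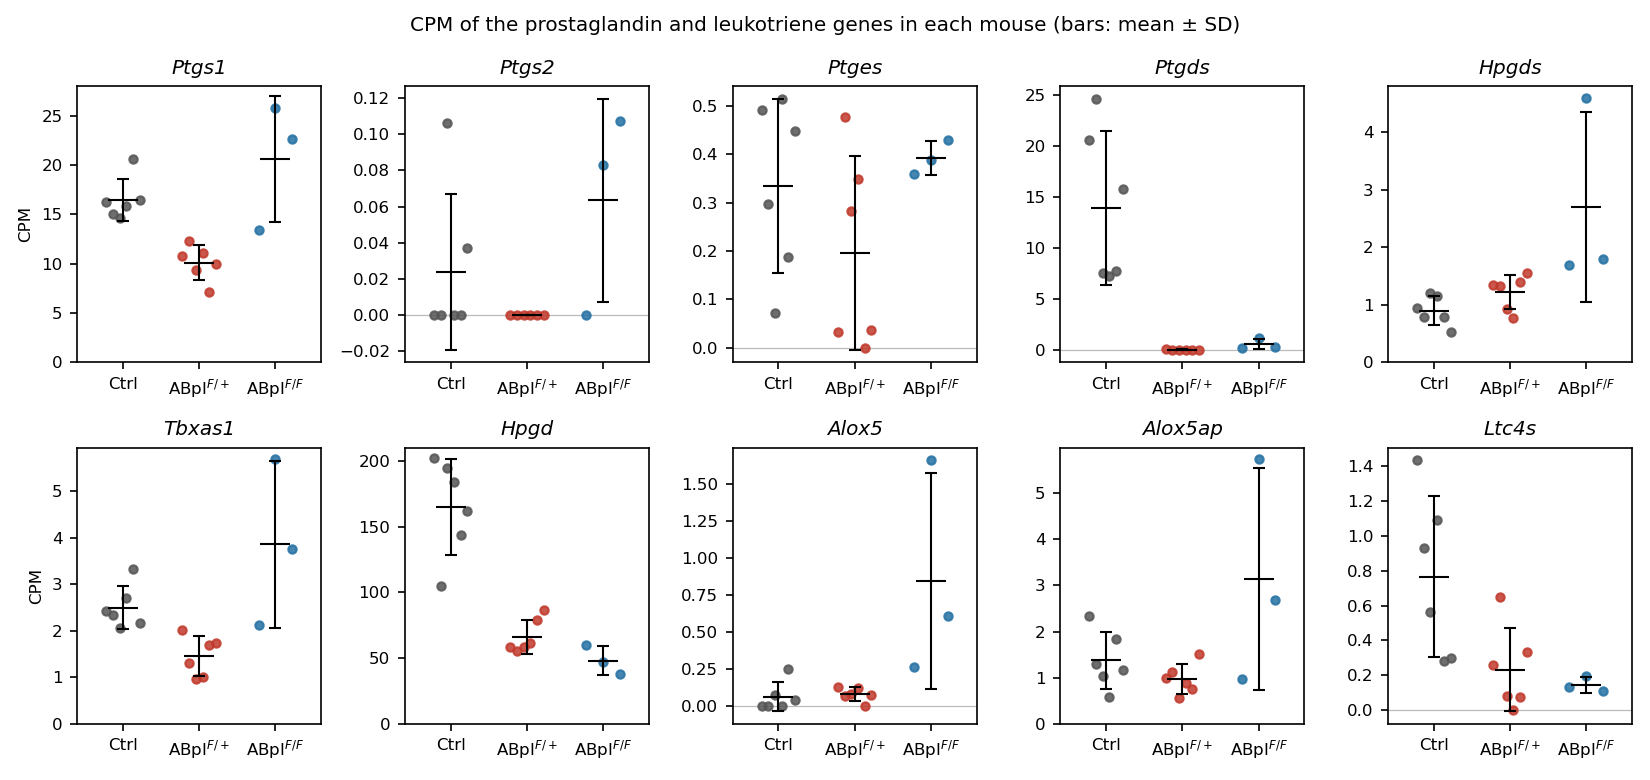
Level of the 10 prostaglandin and leukotriene genes in each liver, in CPM on an axis of its own per gene, with 1 point per mouse and the mean and SD of each group (6 Ctrl, 6 ABpI F/+ and 3 ABpI F/F mice). *Ptgds* lay at 7.22 CPM or more in Ctrl mice and at 0.0320 or less in ABpI F/+ mice, and *Hpgd* was lower in both mutant genotypes.

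The genes differed widely in abundance once length was taken into account. Per kilobase of exon, *Hpgd* was the most abundant of the 10 in Ctrl livers at 98.2 ± 21.8 CPM per kb (SD, n = 6), followed by *Ptgds* at 8.43 ± 4.59 and *Ptgs1* at 4.24 ± 0.549. *Hpgd* did not overlap the others in any group, whereas the Ctrl levels of *Ptgds* and *Ptgs1* overlapped. *Alox5ap* and *Ltc4s* followed at 0.966 and 0.756 CPM per kb and overlapped each other. *Tbxas1* stood at 0.275, *Hpgds* at 0.140, *Ptges* at 0.0851, *Alox5* at 0.0145 and *Ptgs2* at 0.00521 CPM per kb. In ABpI F/+ livers *Ptgds* dropped to ninth place at 0.00323 CPM per kb, above *Ptgs2* alone. That place rests on 1 count against 0, and the range of *Ptgds* overlapped those of *Alox5* and *Ptgs2*. *Alox5ap* reached 2.20 and *Alox5* 0.205 CPM per kb in ABpI F/F livers, where *Ltc4s* stood at 0.142. Over the 15 mice, 6 of the 10 averaged at least 1 CPM: *Hpgd*, *Ptgs1*, *Ptgds*, *Tbxas1*, *Alox5ap* and *Hpgds*.

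The cyclooxygenases begin the prostaglandin branch. *Ptgs1* (Entrez gene 19224; GRCm38 chr2:36216742-36258593, plus strand) encodes cyclooxygenase 1, the form that many cells express at rest. Its lowest, median and highest values were 14.6, 16.0 and 20.6 CPM in Ctrl mice and 7.13, 10.4 and 12.3 CPM in ABpI F/+ mice. The 3 ABpI F/F mice measured 25.8 CPM (BG38), 22.7 (BG90) and 13.4 (BG183). Each ABpI F/+ mouse thus lay below each Ctrl and ABpI F/F mouse, and BG183 was the ABpI F/F mouse below the Ctrl range. ABpI F/+ livers were called lower than ABpI F/F livers (-1.03, SE 0.179, adjusted p = 0.000286 by edgeR). The difference of ABpI F/+ from Ctrl, -0.70 (SE 0.152, adjusted p = 0.00109), was under 2-fold, and that of ABpI F/F from Ctrl was 0.32 (adjusted p = 0.277). The call between the mutant genotypes sat near the 2-fold threshold and ended with filterByExpr genes (-0.99) and without BG38 (-0.84), BG55, BG88 or BG90, with a range of -1.26 to -0.84 over all removals.

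*Ptgs2* (Entrez gene 19225; chr1:150100031-150108234, plus strand) encodes cyclooxygenase 2, the form that inflammatory signals induce. It was close to the detection limit in all groups, with 4 counts over the 6 Ctrl mice, 0 over the 6 ABpI F/+ mice and 6 over the 3 ABpI F/F mice. No mouse had more than 3 counts, and 4 of 15 had any. A count of 3 corresponded on average to 0.107 CPM in Ctrl, 0.110 in ABpI F/+ and 0.0961 CPM in ABpI F/F mice, so no fold is given. Between ABpI F/+ and ABpI F/F livers, 0 against 6 counts gave a 95% counting interval of the ratio with a lower bound of 2.05, which covers counting error only, and edgeR did not call the difference (adjusted p = 0.0749). The 6 and 4 counts of ABpI F/F and Ctrl livers did not show a difference at this depth.

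Downstream of the cyclooxygenases, *Ptges* (Entrez gene 64292; chr2:30889471-30931020, minus strand) encodes the inducible microsomal synthase of prostaglandin E. Its level ranged from 0.0706 to 0.513 CPM in Ctrl, from 0 to 0.478 in ABpI F/+ and from 0.359 to 0.429 in ABpI F/F mice. The 3 ranges overlapped, and edgeR called it in no comparison (lowest adjusted p = 0.477).

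Prostaglandin D has a pair of synthases that are unrelated in sequence, and in ABpI F/F livers they changed in opposite directions. *Ptgds* (Entrez gene 19215; chr2:25466709-25470110, minus strand) encodes the lipocalin type, a secreted protein that also carries small lipophilic molecules. Its lowest, median and highest values in Ctrl mice were 7.22, 11.7 and 24.6 CPM. In ABpI F/+ mice it had 0 counts in 5 livers and 1 count in BG175, equal to 0.0320 CPM. Among ABpI F/F mice it reached 1.11 CPM in BG38, 0.286 in BG90 and 0.196 in BG183, from 40, 8 and 6 counts. The 3 genotypes therefore did not overlap, with Ctrl highest, ABpI F/F between and ABpI F/+ at or next to 0. Among Ctrl mice, malpa387 (24.6 CPM), BG3 (20.5) and malpa462 (15.7) were high and the other 3 lay between 7.22 and 7.74.

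*Ptgds* fell in both mutant genotypes. Summed over mice, Ctrl livers held 2271 counts and ABpI F/+ livers 1, a ratio of 2206 per unit of depth with a 95% counting interval from 396 to 87184. The fitted change was -10.38 (SE 0.751, adjusted p = 3.53e-08 by edgeR), with all 6 ABpI F/+ mice below all 6 Ctrl mice. *Ptgds* was 26.2-fold below Ctrl in ABpI F/F livers, a log2 fold change of -4.65 (SE 0.599, adjusted p = 4.21e-05), with all 3 mice below the Ctrl range. Both calls held whichever mouse was left out, when the changes ran from -11.65 to -10.14 and from -5.83 (without BG38) to -4.26, and with strain label (-10.95 and -5.22) or the clock component in the model (-10.15 and -5.37). ABpI F/+ livers also lay below ABpI F/F livers, by a count ratio of 94.0 with a 95% counting interval from 16.2 to 3780 (54 counts against 1) and a fitted change of -5.73 (SE 1.12, adjusted p = 0.00181). That call ended without BG38 (-4.54), without BG175 (-6.92), in the current quasi-likelihood form of edgeR (-5.75) and with the clock component (-4.78).

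*Hpgds* (Entrez gene 54486; chr6:65117293-65144981, minus strand) encodes the hematopoietic prostaglandin D synthase, a glutathione-dependent enzyme of mast cells, macrophages and some lymphocytes. Ctrl mice had a lowest, median and highest value of 0.522, 0.863 and 1.20 CPM, and ABpI F/+ mice of 0.774, 1.34 and 1.55. *Hpgds* reached 4.60 CPM in the ABpI F/F mouse BG38, 1.79 in BG90 and 1.70 in BG183. All 3 thus exceeded each Ctrl and ABpI F/+ mouse, and BG38 stood far above the other pair. *Hpgds* rose 3.00-fold in ABpI F/F over Ctrl livers, a log2 fold change of 1.59 (SE 0.350, adjusted p = 0.00223 by edgeR). It was called neither in ABpI F/+ against Ctrl (0.44, adjusted p = 0.366), nor in ABpI F/+ against ABpI F/F (-1.14, adjusted p = 0.0237), which DESeq2 called (-1.16). The rise over Ctrl was 0.95 without BG38 (adjusted p = 0.110) and 1.51 with strain label in the model (adjusted p = 0.189), neither of them called.

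*Tbxas1* (Entrez gene 21391; chr6:38864159-39084590, plus strand) encodes thromboxane A synthase, a cytochrome P450 enzyme of platelets and macrophages. It averaged 2.50 CPM in Ctrl mice (2.05 to 3.33) and 1.45 in ABpI F/+ mice (0.968 to 2.01). Among the 3 ABpI F/F mice, BG38 had 5.71 CPM, BG90 3.75 and BG183 2.12. Each ABpI F/+ mouse lay below each mouse of the other groups, while BG183 lay within the Ctrl range. *Tbxas1* was called lower in ABpI F/+ than in ABpI F/F livers (-1.41, SE 0.297, adjusted p = 0.00167 by edgeR). The difference of ABpI F/+ from Ctrl was -0.78 (adjusted p = 0.0273) and that of ABpI F/F was 0.63 (adjusted p = 0.179), neither of them called. Without BG38 the difference between the mutant genotypes was -1.01 (adjusted p = 0.0417), not called.

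*Hpgd* (Entrez gene 15446; chr8:56294552-56321046, plus strand) encodes the NAD-dependent dehydrogenase that oxidizes and so begins to inactivate prostaglandins. Over Ctrl mice the lowest, median and highest values were 105 CPM, 173 CPM and 202 CPM, and over ABpI F/+ mice 55.2, 59.7 and 86.6 CPM. The ABpI F/F mice measured 46.8 CPM in BG38, 37.7 in BG90 and 60.0 in BG183. No mutant liver reached the lowest Ctrl value, and the mutant genotypes overlapped each other. *Hpgd* fell 2.49-fold in ABpI F/+ livers, a log2 fold change of -1.32 (SE 0.163, adjusted p = 1.58e-06 by edgeR). It fell 3.43-fold in ABpI F/F livers, a log2 fold change of -1.78 (SE 0.214, adjusted p = 2.91e-06). The mutant genotypes differed by 0.46 (adjusted p = 0.126), which was not called. Both falls were called whichever mouse was left out, when they ran from -1.42 to -1.25 and from -1.97 to -1.63, and with strain label in the model (-1.61 and -2.07). With the clock component the change in ABpI F/F livers was smaller, at -1.16 (adjusted p = 0.00469), and still called, and the uncalled difference between the mutant genotypes turned to -0.26.

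Of the leukotriene branch, *Alox5* (Entrez gene 11689; chr6:116410071-116461178, minus strand) encodes the lipoxygenase that commits arachidonic acid to leukotrienes, mainly in neutrophils, macrophages and mast cells. It was rare in Ctrl livers, with 11 counts over 6 mice and a lowest, median and highest value of 0, 0.0186 and 0.249 CPM. The ABpI F/+ values were 0, 0.0772 and 0.128 CPM. *Alox5* measured 1.66 CPM in the ABpI F/F mouse BG38, 0.607 in BG90 and 0.261 in BG183, from 60, 17 and 8 counts. These 3 mice lay above all others, BG183 by a narrow margin over the Ctrl mouse malpa459. Of the 11 Ctrl counts 8 came from malpa459, and the Ctrl mean of 0.0594 CPM lay below the 0.107 CPM that 3 counts were worth, so the size of a rise is uncertain. *Alox5* rose over Ctrl by a fitted log2 fold change of 3.67 (SE 0.831, adjusted p = 0.00277 by edgeR), and was lower in ABpI F/+ than in ABpI F/F livers (-3.37, SE 0.818, adjusted p = 0.00518). The rise over Ctrl was 5.02 without malpa459 and called, and 2.72 without BG38 (adjusted p = 0.101), not called, and with strain label in the model it was not called either (7.61, adjusted p = 0.0756). The call between the mutant genotypes ended without BG38 (-2.40), BG30 (-3.33), BG31 (-3.37), BG55 (-3.12), BG88 (-3.31) or BG90 (-3.55).

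*Alox5ap* (Entrez gene 11690; chr5:149265004-149288153, plus strand) encodes the membrane protein that presents arachidonic acid to this lipoxygenase. Values in Ctrl mice were 0.577, 1.23 and 2.34 CPM (lowest, median and highest), and those in ABpI F/+ mice 0.565, 0.941 and 1.51. The ABpI F/F mice measured 5.73 CPM in BG38, 2.68 in BG90 and 0.979 in BG183. BG38 and BG90 lay above all other livers, whereas BG183 was near the ABpI F/+ median. *Alox5ap* was called lower in ABpI F/+ than in ABpI F/F livers (-1.68, SE 0.433, adjusted p = 0.00795 by edgeR), although the ranges overlapped. It differed from Ctrl by 1.20 in ABpI F/F livers (adjusted p = 0.0603) and by -0.49 in ABpI F/+ livers (adjusted p = 0.453), neither of them called. Without BG183 the difference between ABpI F/F and Ctrl was 1.62 and was called. The call between the mutant genotypes ended on removal of any 1 of 8 mice: BG38 (-0.90), BG90 (-1.78), BG175 (-1.63), BG30 (-1.73), BG31 (-1.57), BG40 (-1.66), BG55 (-1.62) or malpa462 (-1.68). It also ended with these groups fitted alone (-1.71).

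*Ltc4s* (Entrez gene 17001; chr11:50236461-50238532, minus strand) encodes the synthase that joins glutathione to the leukotriene backbone. Its lowest, median and highest values were 0.280, 0.748 and 1.44 CPM in Ctrl mice and 0, 0.168 and 0.648 in ABpI F/+ mice. The ABpI F/F mice measured 0.194 CPM in BG38, 0.107 in BG90 and 0.131 in BG183, all below the Ctrl range. Fitted differences from Ctrl were -1.68 in ABpI F/+ (adjusted p = 0.0435) and -2.36 in ABpI F/F livers (adjusted p = 0.0498), and edgeR called neither. Without BG30 the difference of ABpI F/+ from Ctrl was -2.30 and was called. An antisense gene, *Gm26542*, shares 268 bases of exon with *Ltc4s*, and *Gm43621*, *Gm42962* and *Gm19719* share 148, 144 and 189 bases with *Ptgs1*, *Tbxas1* and *Alox5ap* on the opposite strand. The strand setting of the counting is not stated, so reads of the members of each pair cannot be told apart there.

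Marker genes of leukocytes differed between the same livers. The 10 macrophage and Kupffer cell markers, of which *Clec4f* was the most abundant, summed to 404 CPM, 471 CPM and 558 CPM (lowest, median and highest) in Ctrl mice and to 167 CPM, 237 CPM and 292 CPM in ABpI F/+ mice. Over ABpI F/F mice they summed to 833 CPM in BG38, 653 CPM in BG90 and 340 CPM in BG183. ABpI F/+ livers were thus lowest throughout, and BG183 lay below the Ctrl range. edgeR called 6 of the 10 lower in ABpI F/+ than in Ctrl livers and 7 lower in ABpI F/+ than in ABpI F/F livers, and the median log2 fold change of ABpI F/F from Ctrl was 0.19.

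The 8 neutrophil markers, with *S100a9* the most abundant, summed to 2.47, 3.61 and 4.42 CPM in Ctrl mice and to 2.34, 4.18 and 9.73 CPM in ABpI F/+ mice. Their sum in ABpI F/F mice was 97.5 CPM in BG38, 34.2 in BG90 and 5.03 in BG183. BG38 and BG90 stood above all other livers, in the same order as for *Alox5* and *Alox5ap*. edgeR called 7 of the 8 higher than Ctrl in ABpI F/F livers and 6 lower in ABpI F/+ than in ABpI F/F livers. The 6 markers of recruited macrophages, chiefly *Cd9*, averaged 19.4 CPM in Ctrl, 70.2 in ABpI F/+ and 97.5 CPM in ABpI F/F mice, with 140 CPM in BG38, 94.3 in BG90 and 58.2 in BG183. Of these, edgeR called 4 higher than Ctrl in ABpI F/+ livers and 5 in ABpI F/F livers. Between the mutant genotypes, 2 were called lower in ABpI F/+ livers.

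Platelets express *Ptgs1* and *Tbxas1*, and mast cells express *Hpgds*. The 7 platelet and megakaryocyte markers summed on average to 4.56 CPM in Ctrl, 8.17 in ABpI F/+ and 12.6 CPM in ABpI F/F mice. The sum was 17.7 CPM in BG38, 14.9 in BG90 and 5.32 in BG183, and *Itga2b* was the most abundant of the 7 markers. Of these, edgeR called 1 higher than Ctrl in ABpI F/+ livers and 4 in ABpI F/F livers. Of the 8 mast cell markers, *Cpa3*, *Tpsab1*, *Ms4a2* and *Fcer1a* had no more than 3 counts in any mouse, and *Kit*, which other liver cells also express, made up most of the sum of 6.73 CPM in Ctrl, 2.06 in ABpI F/+ and 4.19 CPM in ABpI F/F mice. Of the 6 eosinophil and basophil markers, *Epx* and *Mcpt8* had no more than 3 counts in any mouse, *Siglecf* was the most abundant, and the sum averaged 0.459, 0.223 and 0.969 CPM.

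**Figure D2:**
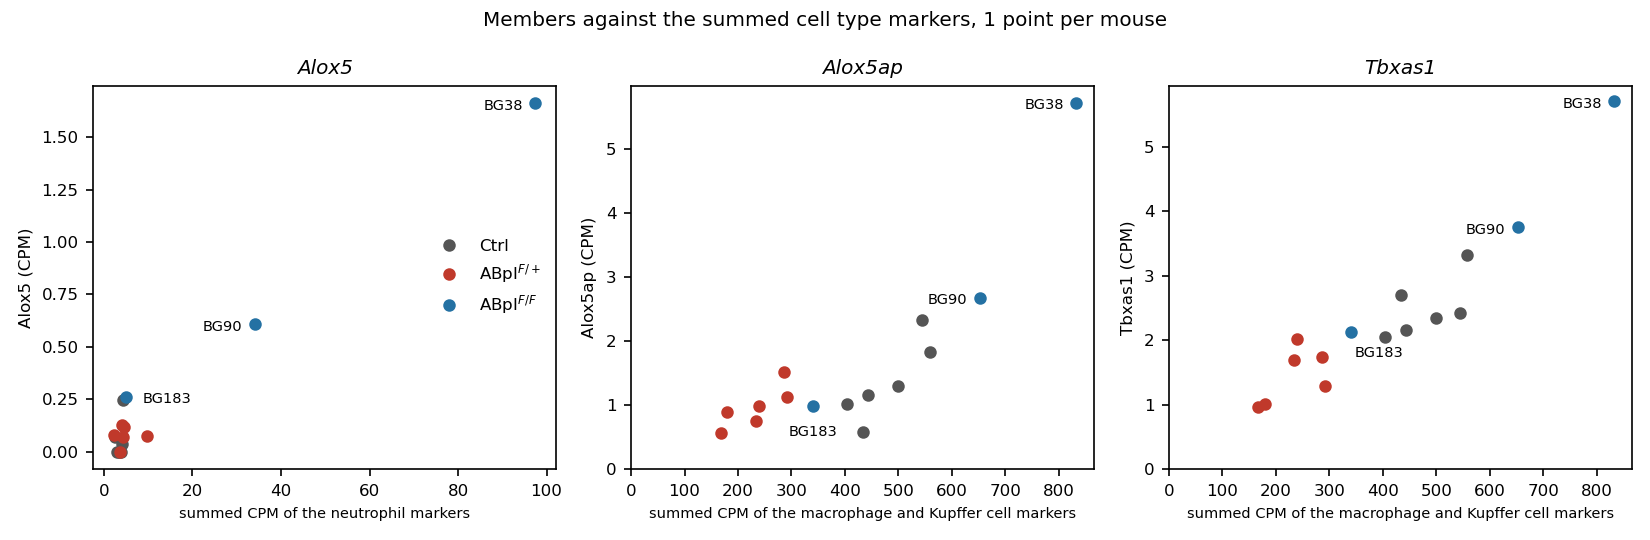
CPM of *Alox5* against the summed CPM of 8 neutrophil markers, and of *Alox5ap* and *Tbxas1* against the summed CPM of 10 macrophage and Kupffer cell markers, with 1 point per mouse colored by group and the ABpI F/F mice named. BG38 was highest on both axes of each panel, with 97.5 CPM of neutrophil and 833 CPM of macrophage markers.

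Relative to these sums, the genes behaved differently from one another. *Tbxas1* CPM amounted to 0.521 ± 0.0710% of the macrophage marker sum in Ctrl mice (SD, n = 6), 0.626 ± 0.138% in ABpI F/+ mice (n = 6) and 0.628 ± 0.0553% in ABpI F/F mice (n = 3), with overlapping ranges. *Ptgs1* ranged from 2.98 to 3.70% of the same sum in Ctrl, from 3.05 to 6.18% in ABpI F/+ and from 3.09 to 3.95% in ABpI F/F mice, again overlapping. *Alox5ap* amounted to 0.278 ± 0.0977%, 0.414 ± 0.0839% and 0.462 ± 0.205%. *Hpgds* differed more, at 0.192 ± 0.0726% for Ctrl, 0.523 ± 0.0646% for ABpI F/+ mice and 0.441 ± 0.148% for ABpI F/F mice, and here the ABpI F/+ range (0.432 to 0.597%) lay above the Ctrl range (0.118 to 0.297%). Of the neutrophil marker sum, *Alox5* amounted to 1.57 ± 2.28%, 1.91 ± 1.37% and 2.89 ± 1.99%. Other marker lists gave other pictures. *Ptgs1* ranged from 232 to 509% of the platelet marker sum in Ctrl mice, from 88.0 to 176% in ABpI F/+ mice and from 146 to 253% in ABpI F/F mice, and *Tbxas1* from 34.7 to 82.3%, from 8.00 to 32.8% and from 25.2 to 39.9%, so that for both genes the ABpI F/+ range lay below the Ctrl range. *Alox5ap* amounted to 38.7 ± 14.8%, 21.7 ± 3.96% and 11.1 ± 7.35% of the neutrophil sum, and *Alox5* to 0.0117 ± 0.0175%, 0.0359 ± 0.0238% and 0.123 ± 0.0667% of the macrophage sum. The part of cell composition in the differences of these genes was not tested.

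Across the 15 mice, as deviations from each group's mean, *Alox5ap* correlated with the macrophage sum at Pearson r = 0.859 and with the neutrophil sum at 0.826 (n = 15). For *Tbxas1* these were 0.831 and 0.763, and for *Ptgs1* 0.668 and 0.725. *Hpgd* gave -0.204 with the macrophage sum. Other marker lists gave values of similar size. *Alox5ap* gave 0.728 with recruited macrophages and 0.680 with platelets, and *Tbxas1* 0.721 with T, B and NK cells. *Ptgs1* gave 0.648 with cholangiocytes and 0.608 with platelets. *Hpgds* was highest with T, B and NK cells (0.649, against 0.575 with macrophages). *Ptgds* was highest with recruited macrophages (0.645), followed by cholangiocytes (0.583). Among the 6 members with at least 1 CPM, the closest pairs were *Ptgs1* with *Alox5ap* (0.677), *Hpgds* with *Tbxas1* (0.655) and *Tbxas1* with *Alox5ap* (0.649). These values describe the same 15 livers and share the weight of BG38.

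Of 12210 genes compared in the same way, those closest to *Tbxas1* were *Cttnbp2nl* (r = 0.934), the macrophage growth factor receptor *Csf1r* (0.898), which is also among the macrophage markers, and the phagocyte oxidase subunit *Ncf1* (0.893). Those closest to *Alox5ap* were the Fc receptors *Fcgr4* (0.926) and *Fcgr3* (0.915) and the gene *Phf11b* (0.912). For *Hpgd* they were *Ctsf* (0.928), *Grsf1* (0.905) and *Ndfip1* (0.892), and for *Ptgs1* *Pfkfb4* (0.921), *Ppp1r9b* (0.904) and *Fry* (0.896). For *Hpgds* they were *Casp12* (0.814), *Septin7* (0.812) and *Usp42* (0.802). *Ptgds* was closest to *Septin4* (0.878), *Gstm1* (0.877) and *Cfap410* (0.865), with the ABpI F/+ mice near 0 adding little. Several of these likenesses held within genotypes only. With group means kept, r was -0.0863 for *Hpgd* with *Ctsf*, -0.400 for *Ptgs1* with *Fry*, 0.238 for *Hpgds* with *Septin7*, and 0.230, -0.328 and -0.840 for *Ptgds* with its 3 genes, whereas the genes of *Tbxas1* and *Alox5ap* gave 0.867 or more. Leaving out the 2 mice farthest from the median, the first gene of each list gave 0.895 for *Tbxas1*, 0.860 for *Alox5ap*, 0.928 for *Hpgd*, 0.804 for *Ptgs1*, 0.709 for *Hpgds* and 0.767 for *Ptgds*.

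The wider pathway was read from 4 lists of 69 symbols, of which 65 had a read. In ABpI F/+ against Ctrl livers, 10 were called higher and 10 lower, beside 6.26% and 7.13% of all genes. At an unadjusted p below 0.05, 15 were higher and 23 lower (22.2% and 22.4% of all genes), and DESeq2 called 10 higher and 10 lower (8.10% and 9.78%). For ABpI F/F against Ctrl livers, 8 were called higher and 6 lower, beside 6.06% and 3.17%. The unadjusted counts there were 17 higher and 14 lower (20.4% and 14.8%), and DESeq2 called 9 higher and 6 lower (8.71% and 4.58%). Between ABpI F/+ and ABpI F/F livers, 7 were called lower and 0 higher by edgeR, beside 7.32% and 2.35% of all genes, with 12 higher and 20 lower at an unadjusted p below 0.05 (15.8% and 21.5% of all genes), and DESeq2 called 0 higher and 11 lower (3.74% and 11.2%). The percentages beside the edgeR calls are also the background of the counts per list given below. The median log2 fold changes of the 65 genes were -0.25, 0.27 and -0.23, and they were -0.28, 0.30 and -0.22 without genes too low for a fold and with groups at 0 set to their limit. Without BG38 the counts were 2 higher and 6 lower for ABpI F/F against Ctrl (774 and 438 of all genes), and 1 higher and 2 lower for ABpI F/+ against ABpI F/F (367 and 788). With strain label in the model they were 3 higher and 6 lower for ABpI F/+ against Ctrl (2.68% and 3.98% of all genes) and 1 higher for ABpI F/F against Ctrl (2.24%). With the clock component 0 were called lower in ABpI F/+ than in ABpI F/F livers, beside 0.388% of all genes. The fitted differences of *Pla2g4a* and *Akr1c6* were then -2.24 and -1.38.

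In the list for substrate release, the hydrolases *Mgll* and *Abhd6* fell in both mutant genotypes. Its 19 genes are not all enzymes that release arachidonic acid, since *Anxa1* and *Pla2g7* are among them. Of the 19 genes, 2 were called higher and 3 lower in ABpI F/+ than in Ctrl livers, 3 higher and 2 lower than Ctrl in ABpI F/F livers, and 2 lower in ABpI F/+ than in ABpI F/F livers. *Mgll* encodes monoacylglycerol lipase, which frees arachidonic acid from an endocannabinoid, and *Abhd6* encodes another hydrolase of the same substrate. *Mgll* averaged 203 ± 48.3 CPM in Ctrl (n = 6), 27.5 ± 7.43 in ABpI F/+ (n = 6) and 28.1 ± 19.0 CPM in ABpI F/F mice (n = 3), with no mutant liver in the Ctrl range. It fell by 2.88 (SE 0.297, adjusted p = 2.52e-06) in ABpI F/+ and by 2.85 (SE 0.394, adjusted p = 9.95e-05) in ABpI F/F livers. *Abhd6* averaged 46.7 ± 6.14, 11.3 ± 1.96 and 11.3 ± 3.86 CPM, and its changes were -2.04 (SE 0.152, adjusted p = 1.16e-09) and -2.05 (SE 0.198, adjusted p = 1.38e-07). Both genes were called whichever mouse was left out. The change of *Mgll* in ABpI F/F livers was -3.55 without BG183 and -2.14 with the clock component.

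Among phospholipases, *Pla2g4a* encodes the cytosolic enzyme that cuts arachidonic acid from membranes. It averaged 1.77 ± 0.392 CPM in Ctrl, 0.435 ± 0.365 in ABpI F/+ and 2.10 ± 0.780 CPM in ABpI F/F mice, and the ABpI F/+ mice lay below all others. It fell in ABpI F/+ against Ctrl (-2.02, SE 0.406, adjusted p = 0.000557) and was lower in ABpI F/+ than in ABpI F/F livers (-2.26, SE 0.458, adjusted p = 0.00120). *Pla2g12a*, a secreted phospholipase, rose in ABpI F/+ livers from 10.5 ± 6.05 to 31.3 ± 2.30 CPM (1.58, SE 0.300, adjusted p = 0.00105) and stood at 15.9 ± 2.11 in ABpI F/F mice, where it was not called. *Pla2g7*, which hydrolyzes platelet-activating factor, averaged 2.76, 6.00 and 7.84 CPM and rose in both mutant genotypes (2.18-fold, adjusted p = 0.00591, and 2.84-fold, adjusted p = 0.00289). *Anxa1*, a phospholipid-binding protein that restrains inflammation, averaged 3.12, 1.73 and 8.21 CPM. It rose in ABpI F/F over Ctrl livers (1.40, adjusted p = 0.00254 by edgeR) and was lower in ABpI F/+ than in ABpI F/F livers (-2.24, adjusted p = 3.96e-05). The *Anxa1* difference of ABpI F/+ from Ctrl was -0.85 (adjusted p = 0.0275) and not called, but without BG175 it was -1.04 and called. Without BG38 the ABpI F/F calls against Ctrl of *Pla2g7* (0.84) and *Anxa1* (0.84) ended, as did that of *Pla2g4a* between mutants (-2.05). The ABpI F/+ call of *Pla2g7* ended on removal of any 1 of 7 mice (BG3, malpa387, malpa454, malpa458, BG30, BG55 or BG88; 0.96 to 1.15), and strain label in the model ended the calls against Ctrl of *Pla2g4a* (-1.44), *Pla2g12a* (0.71), *Pla2g7* (1.41 and 1.80) and *Anxa1* (1.09). The clock component also ended those of *Pla2g7* (1.09 and 1.67) and *Anxa1* (1.20), and the calls of *Pla2g4a* (-2.24) and *Anxa1* (adjusted p = 0.0669 by edgeR) between the mutant genotypes, where both changes stayed about as large.

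Of 18 other synthases and lipoxygenases with a read, 2 were called higher and 3 lower in ABpI F/+ than in Ctrl livers, 2 higher and 2 lower than Ctrl in ABpI F/F livers, and 1 lower in ABpI F/+ than in ABpI F/F livers. *Ptgis* encodes prostacyclin synthase, found in endothelium and fibroblasts. It averaged 3.57 ± 0.586 CPM in Ctrl, 0.716 ± 0.512 in ABpI F/+ and 2.17 ± 0.984 CPM in ABpI F/F mice, and fell in ABpI F/+ livers (-2.31, SE 0.407, adjusted p = 0.000182), a call that ended with strain label in the model (-2.15). Its difference between ABpI F/+ and ABpI F/F livers was -1.59 (SE 0.468, adjusted p = 0.0207), not called, although DESeq2 (-1.61) and the current quasi-likelihood form of edgeR (-1.60) called it, as did edgeR without BG40 (-1.98) or BG183 (-1.92). In the same livers, 8 stellate cell and fibroblast markers, chiefly *Dcn*, summed to 236 CPM in Ctrl, 84.0 in ABpI F/+ and 300 CPM in ABpI F/F mice on average, with 7 called lower in ABpI F/+ than in Ctrl, 1 higher than Ctrl in ABpI F/F livers and 7 lower in ABpI F/+ than in ABpI F/F livers (median difference -1.94). The 7 sinusoidal endothelium markers, of which *Stab2* was the most abundant, summed to 194 CPM, 125 CPM and 220 CPM. Here 2 were called lower in ABpI F/+ than in Ctrl, 1 higher than Ctrl in ABpI F/F livers and 2 lower in ABpI F/+ than in ABpI F/F livers. The part of these cells in the *Ptgis* difference was not tested.

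*Akr1b7*, an aldo-keto reductase able to form prostaglandin F, rose from 1.98 ± 1.25 CPM in Ctrl to 26.8 ± 6.49 in ABpI F/+ and 12.2 ± 11.9 CPM in ABpI F/F mice (3.77, adjusted p = 8.56e-05, and 2.64, adjusted p = 0.00444). Among ABpI F/F mice it measured 26.0 CPM in BG38, 4.97 in BG90 and 5.78 in BG183, and the call against Ctrl ended without BG38 (1.45), malpa454 (2.53), malpa458 (2.68) or malpa462 (2.53). Strain label in the model ended both calls (3.31 and 2.18), and that in ABpI F/F livers also ended with the clock component (1.86) or with these groups fitted alone (2.59). *Akr1c6*, a liver reductase of the same superfamily, averaged 874 ± 102 CPM in Ctrl, 142 ± 21.7 in ABpI F/+ and 333 ± 123 CPM in ABpI F/F mice, and the 3 ranges did not overlap. It fell in ABpI F/+ livers (-2.63, SE 0.168, adjusted p = 1.22e-10) and in ABpI F/F livers (-1.39, SE 0.207, adjusted p = 3.96e-05), and the ABpI F/+ level was also below the ABpI F/F level (-1.23, SE 0.188, adjusted p = 8.41e-05; -0.94 without BG183 and -1.38 with the clock component, neither called). *Mgst1*, a microsomal glutathione transferase of the protein family of *Ltc4s*, averaged 1785 ± 351 CPM, 557 ± 69.3 and 545 ± 62.5, with changes of -1.68 (SE 0.149, adjusted p = 1.46e-08) and -1.71 (SE 0.193, adjusted p = 1.27e-06). Its levels in the mutant genotypes overlapped.

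Of 14 genes of inactivation and transport with a read, 3 were called higher and 2 lower in ABpI F/+ than in Ctrl livers, 2 higher and 2 lower than Ctrl in ABpI F/F livers, and 1 lower in ABpI F/+ than in ABpI F/F livers. *Cyp4f14*, a leukotriene hydroxylase, had a lowest, median and highest value of 306 CPM, 399 CPM and 461 CPM in Ctrl mice, and averaged 76.9 ± 20.3 CPM in ABpI F/+ and 128 ± 55.8 CPM in ABpI F/F mice, with changes of -2.35 (SE 0.201, adjusted p = 1.65e-08) and -1.61 (SE 0.254, adjusted p = 9.56e-05). Its call in ABpI F/F livers ended with the clock component (-1.22, adjusted p = 0.0278). *Ephx2*, the soluble hydrolase of epoxy fatty acids, averaged 450 ± 101 CPM, 147 ± 21.5 and 103 ± 34.5, with changes of -1.62 (SE 0.168, adjusted p = 1.43e-07) and -2.12 (SE 0.224, adjusted p = 5.01e-07). Both genes, like *Hpgd*, fell in both mutant genotypes with no mutant liver in the Ctrl range.

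*Ptgr1*, which encodes a reductase acting after *Hpgd*, went the other way. It averaged 4.86 ± 0.435 CPM in Ctrl, 10.0 ± 2.89 in ABpI F/+ and 13.4 ± 1.66 CPM in ABpI F/F mice, all mutant values lying above the Ctrl range. Its rises were 1.04 (SE 0.168, adjusted p = 5.01e-05) and 1.47 (SE 0.195, adjusted p = 1.06e-05), and the first ended without BG31 (0.92) or BG40 (0.97), while strain label in the model ended both (1.02 and 1.45) and the clock component the second (1.26). *Abcc4*, an exporter of prostaglandins, rose in ABpI F/+ livers from 6.51 ± 2.67 to 20.6 ± 7.54 CPM (1.66, SE 0.395, adjusted p = 0.00603) and measured 18.9 CPM in BG38, 5.32 in BG90 and 3.92 in BG183. The ABpI F/+ call of *Abcc4* ended on removal of any 1 of 9 mice (BG3, malpa387, malpa454, malpa459, malpa462, BG30, BG31, BG40 or BG55; range over all removals 1.45 to 1.88) and with strain label (2.19) or the clock component in the model (1.63). Without BG38, *Abcc4* was called higher in ABpI F/+ than in ABpI F/F livers (2.16).

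Of 14 receptor genes with a read, 3 were called higher and 2 lower in ABpI F/+ than in Ctrl livers, 1 higher than Ctrl in ABpI F/F livers, and 3 lower in ABpI F/+ than in ABpI F/F livers. Those 3, *Ptger4*, *Cysltr1* and *Cysltr2*, averaged under 1 CPM over the 15 mice and are named after their values were seen. Without BG38 none of the 3 was called, since the 2 pathway genes then called lower in ABpI F/+ livers were *Anxa1* and *Akr1c6*. *Tbxa2r*, the thromboxane receptor, averaged 1.64 ± 0.411 CPM in Ctrl, 0.469 ± 0.444 in ABpI F/+ and 1.11 ± 0.642 CPM in ABpI F/F mice, and fell in ABpI F/+ livers (-1.79, SE 0.438, adjusted p = 0.00333), although the ranges overlapped. *Ltb4r1*, a leukotriene B receptor, averaged 0.650, 1.55 and 0.851 CPM and rose in ABpI F/+ livers (1.25, adjusted p = 0.00726). *Ptgfrn*, which encodes a membrane partner of the prostaglandin F receptor, averaged 3.83 ± 0.974, 9.99 ± 1.23 and 12.2 ± 2.63 CPM and rose by 1.38 (SE 0.171, adjusted p = 1.73e-06) and 1.66 (SE 0.198, adjusted p = 2.45e-06), with all mutant livers above the Ctrl range. Strain label in the model took the *Ptgfrn* changes to 2.12 and 2.40 and ended the calls of *Tbxa2r* (-2.35) and *Ltb4r1* (0.43). Without BG88 the change of *Tbxa2r* from Ctrl in ABpI F/+ livers was -2.42. Its difference between ABpI F/+ and ABpI F/F livers, -1.22 and not called (adjusted p = 0.115 by edgeR), was then -1.84 and called. The clock component ended the call of *Ltb4r1* (1.14), and it also ended on removal of any 1 of 8 mice (malpa387, malpa454, malpa458, malpa459, malpa462, BG31, BG40 or BG55), with changes of 1.10 to 1.28.

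**Figure D3:**
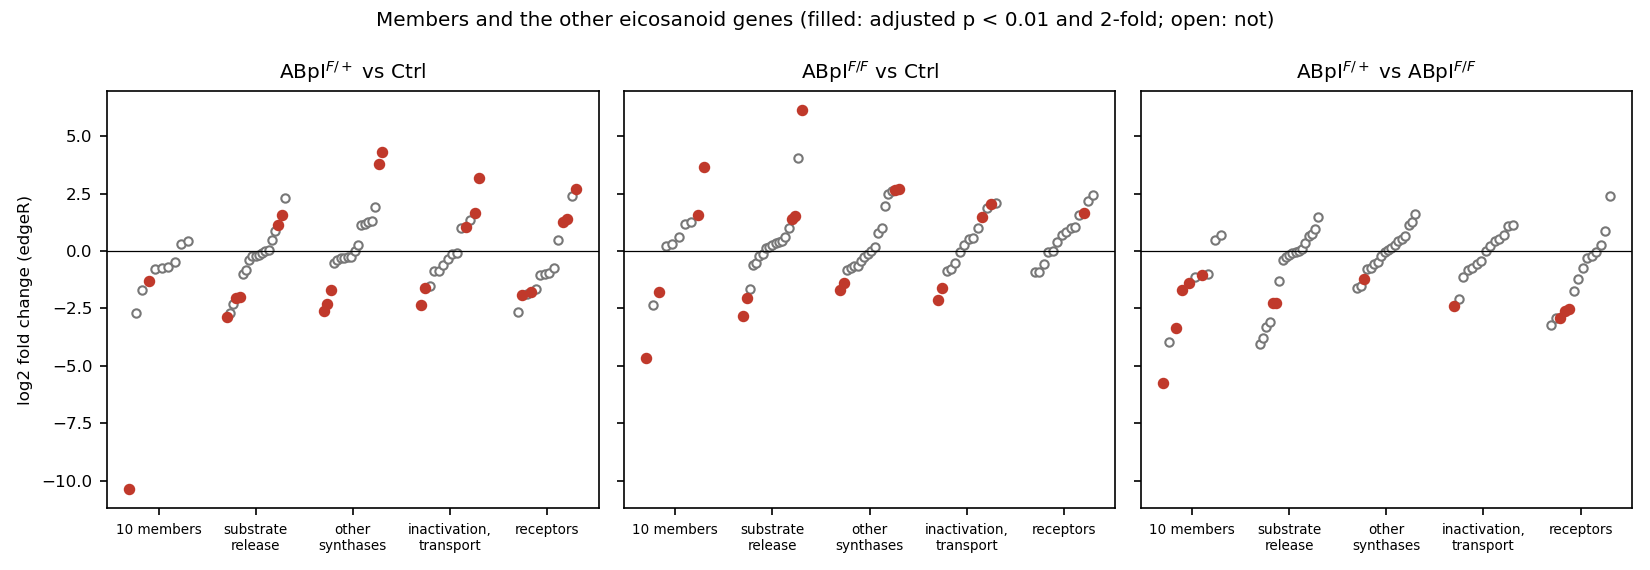
Fitted log2 fold change from edgeR of each of the 10 members and of the other pathway genes with a read, by list and in rising order, for ABpI F/+ against Ctrl, ABpI F/F against Ctrl (the same 6 Ctrl mice) and ABpI F/+ against ABpI F/F, with called genes filled and others open. The lowest point is *Ptgds* in ABpI F/+ livers at -10.38, and fitted values of genes near 0 counts, open points such as *Ptgs2* among them, depend on the prior count.

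Promoter sequences are shown for 6 members called in a comparison, as a view of their letters. None of the motifs below occurred in all 6. RefSeq promoters for GRCm38.p6 were available for 9 of the 10 genes, with none for *Alox5ap*, and 6 motifs were searched on both strands in the 250 bases before each start. For *Ptgs1*, *Ptges*, *Ptgds*, *Hpgds* and *Tbxas1* this window lay inside the gene span given above. The start used for these genes is therefore not the outer 5′ end of that span. The PU.1-type ETS core GAGGAA, named for a factor of myeloid cells, occurred in 7 of 9 member genes (*Alox5*, *Hpgd*, *Hpgds*, *Ptges*, *Ptgs1*, *Ptgs2* and *Tbxas1*) and in 23.3% of 32851 promoters. The NF-kB motif, GGG and CC set apart by 5 bases, occurred in 4 of 9 and 45.8% of all, the AP-1 motif TGANTCA in 2 (*Ptgds* and *Tbxas1*) and 6.75%, and the TATA box TATAAA in 1 (*Tbxas1*) and 12.4%. The CRE motif TGACGTCA (1.55% of all) and the E-box CACGTG (6.02%) occurred in 0 of 9. A match is a description of letters and not a binding site.

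In the sequences that follow, written 5′ to 3′ along the gene's own strand, capitals mark matches to these motifs, and a motif on the other strand reads TTCCTC for the ETS core or TTTATA for the TATA box. The *Ptgds* stretch surrounds its AP-1 match on the minus strand at chr2:25469768-25469794, and that of *Hpgds* its ETS match on the minus strand at chr6:65144764-65144789, both inside exons of longer transcripts. The *Ptgds* NF-kB match, which runs past the stretch, is left in lower case. The windows of *Ptgs1* (chr2:36230176-36230425, plus strand), *Hpgd* (chr8:56294302-56294551, plus strand) and *Alox5* (chr6:116461179-116461428, minus strand) are whole, and that of *Tbxas1* (chr6:38918876-38918979, plus strand) is the part free of annotated exons, where the ETS and TATA letters share 1 run of capitals and the second TATA match runs past the end.
Ptgds: aggccaagccTGACTCAtaaatagggg
Hpgds: cttttaggtgGAGGAAgtggcctctg
Ptgs1: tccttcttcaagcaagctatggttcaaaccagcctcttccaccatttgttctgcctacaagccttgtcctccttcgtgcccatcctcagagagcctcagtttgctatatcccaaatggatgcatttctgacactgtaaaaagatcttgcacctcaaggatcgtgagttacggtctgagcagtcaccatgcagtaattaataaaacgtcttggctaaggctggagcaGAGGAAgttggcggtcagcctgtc
Hpgd: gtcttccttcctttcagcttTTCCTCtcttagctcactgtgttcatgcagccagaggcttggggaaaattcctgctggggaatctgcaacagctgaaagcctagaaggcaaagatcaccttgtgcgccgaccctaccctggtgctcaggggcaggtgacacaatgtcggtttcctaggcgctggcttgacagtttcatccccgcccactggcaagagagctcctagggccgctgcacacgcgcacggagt
Alox5: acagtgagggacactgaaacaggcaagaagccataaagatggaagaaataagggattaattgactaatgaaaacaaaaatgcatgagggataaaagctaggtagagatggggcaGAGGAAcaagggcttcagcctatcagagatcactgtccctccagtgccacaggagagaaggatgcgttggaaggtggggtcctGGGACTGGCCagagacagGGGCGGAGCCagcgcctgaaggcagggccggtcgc
Tbxas1: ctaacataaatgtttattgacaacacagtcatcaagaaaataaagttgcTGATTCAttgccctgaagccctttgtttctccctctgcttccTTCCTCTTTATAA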

How the data were processed

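The submitters isolated liver RNA with Trizol, prepared stranded mRNA libraries, aligned trimmed reads to mm10 with HISAT2 and counted reads per gene with featureCounts 2.0.8. The deposited values are raw counts of the authors, with 1 column for each of 15 mice although 23 samples are listed. A second deposited table held 10 of these columns with identical counts (0 differed), and its 5 further columns, headed by bare numbers, were not used. All 27179 genes were fitted together in R 4.3.3 with edgeR 4.0.16 (TMM, robust quasi-likelihood F-test in the form of earlier releases, limma 3.58.1) on the 3 genotypes, without a filter on low counts and with Benjamini-Hochberg adjustment. CPM used the TMM-scaled library sizes. A background percentage counts genes with a read. DESeq2 1.42.0, the current edgeR quasi-likelihood form, filterByExpr, each pair of groups alone, strain label or a clock gene component as a covariate, other thresholds and removal of each mouse in turn served as alternatives. Lengths and overlaps came from GENCODE M21, and 20380 genes had a read.

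All 10 genes are named. Of the wider lists, those called in a comparison are named, up to 4 per list and comparison with the largest change among genes averaging at least 1 CPM, and others are counted. Likeness names the 3 genes with the highest correlation. Of 16 cell type marker lists, the most abundant gene and those with at most 3 counts are named. The members and lists were chosen with earlier results of these data known. A limit for a group at 0 was taken at 3 counts over the whole group. Count ratios have exact conditional intervals, which, like these limits, cover counting error only.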

Additional observations from a re-analysis of the deposited data

Results flagged for a closer look

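Of 59 combinations of gene and group with 6 mice, 8 held 1 mouse far from the other 5 by Dixon's criterion. Chance marks about 1 in 20, but that rate does not cover genes at or near 0 counts, such as *Ptgs2* and *Ptgds* here. *Ptgs1* measured 20.6 CPM in the Ctrl mouse malpa459 and 14.6 to 16.4 in the other Ctrl mice. *Alox5* measured 0.249 CPM in the same mouse and 0 to 0.0706 in the others. *Ptgs2* measured 0.106 CPM in the Ctrl mouse malpa454, from 3 counts, and 0 to 0.0373 in the others. *Ptgds* measured 0.0320 CPM in the ABpI F/+ mouse BG175, from 1 count, and 0 in the others, so that any count there would have been marked. *Akr1c6* measured 1076 CPM in the Ctrl mouse BG3 and 811 CPM to 883 CPM in the others. *Tbxa2r* measured 2.42 CPM in BG3 and 1.27 to 1.65 in the other Ctrl mice, and 1.33 CPM in the ABpI F/+ mouse BG88 and 0.116 to 0.546 in the other ABpI F/+ mice. *Ephx2* measured 188 CPM in the ABpI F/+ mouse BG55 and 125 CPM to 144 CPM in the others. The cause was not tested for any of these.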

How the results depend on the processing

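Under 25 alternatives, 2069 of 2241 fold changes of named genes kept their direction and side of the threshold, 24 not called in either fit turned sign, 28 gained a call, 120 lost one and 0 called values turned sign. The 60 group means compared moved by less than 1 SD. The counts below are of the 10 members and of the other pathway genes, and where a count moved the cause was not tested.

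With filterByExpr, members higher than Ctrl in ABpI F/F livers numbered 1 and members lower in ABpI F/+ than in ABpI F/F 3 (*Alox5* and *Ptgs2* were not kept). Of all 14596 genes kept, 8.62% were then called higher and 10.6% lower in ABpI F/+ than in Ctrl, 7.92% higher and 5.16% lower than Ctrl in ABpI F/F livers, and 3.98% higher and 10.1% lower in ABpI F/+ than in ABpI F/F livers. With strain label, other genes in ABpI F/+ against Ctrl numbered 3 higher and 6 lower, and in ABpI F/F against Ctrl 0 members and 1 other gene were higher. With the clock component, 0 members and 1 other gene were higher than Ctrl in ABpI F/F livers, and 0 members and 0 other genes were lower in ABpI F/+ than in ABpI F/F. That component was nearly tied to the ABpI F/F genotype, so such a fit can hardly separate them, and the part of the clock was not tested. Some fitted changes of ABpI F/F from Ctrl were larger than without it, such as *Hpgds* (1.74) and *Alox5* (5.30). Others were smaller, such as *Hpgd* (-1.16), *Mgll* (-2.14), *Akr1b7* (1.86) and *Cyp4f14* (-1.22). Between the mutant genotypes *Tbxas1* was then at -1.33 and *Pla2g4a* at -2.24. DESeq2 called 11 other genes lower in ABpI F/+ than in ABpI F/F, and gave no adjusted p for *Ptgs2*.

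At an adjusted p below 0.05 and any fold, 5 members and 18 other genes were lower in ABpI F/+ than in Ctrl. ABpI F/F against Ctrl then had 13 other genes higher and 14 lower, and ABpI F/+ against ABpI F/F 4 higher and 13 lower. Of the 20380 genes with a read, this rule took in 17.0% as higher and 17.0% as lower in ABpI F/+ than in Ctrl, 12.9% and 9.82% in ABpI F/F against Ctrl, and 9.95% and 14.3% in ABpI F/+ against ABpI F/F. At a 4-fold change, ABpI F/+ against Ctrl had 1 member lower and 4 other genes higher and 6 lower. ABpI F/F against Ctrl had 1 member higher and 1 lower, and 4 other genes higher and 3 lower. ABpI F/+ against ABpI F/F had 2 members lower. Of the same 20380 genes, the 4-fold rule took in 529 as higher and 566 as lower in ABpI F/+ than in Ctrl, 663 and 193 for ABpI F/F against Ctrl, and 94 and 761 between the mutant genotypes.

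Leaving out each mouse gave ranges. Members lower in ABpI F/+ than in Ctrl ran from 2 to 3 and other genes higher from 6 to 10. In ABpI F/F against Ctrl, members higher ran from 0 to 3 and other genes higher from 2 to 11. In ABpI F/+ against ABpI F/F, members lower ran from 0 to 5, other genes higher from 0 to 1 and lower from 2 to 7, with 0 members lower without BG38. Over the 20380 genes with a read, those called higher in ABpI F/+ than in Ctrl ran from 1181 to 1287 and lower from 1323 to 1492. For ABpI F/F against Ctrl the genes higher ran from 774 to 1480 and lower from 438 to 796. Between the mutant genotypes 367 to 543 genes were higher and 788 to 1571 lower in ABpI F/+ livers.

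No paired analysis was possible because replicate numbers in the labels count libraries of 1 mouse and no mouse name is shared between groups. The second deposited table was not run as a fit. Its counts were identical in the 10 columns with shared mouse names, and its other 5 columns were not compared or used. The ABpI F/F group holds 3 mice, *Ptgs2* and *Alox5* rest on few counts, and RNA levels do not measure enzyme activity or lipid amounts. Strain label and *Braf* genotype differ in 1 Ctrl mouse alone.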

Other observations

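Other cell type markers also differed between these livers. The 6 cholangiocyte markers, chiefly *Spp1*, summed to 51.2 CPM in Ctrl, 87.8 in ABpI F/+ and 711 CPM in ABpI F/F mice on average, with 1150 CPM in BG38, 778 CPM in BG90 and 205 CPM in BG183. Without *Spp1* the other 5 summed to 7.40 CPM (6.39 to 8.41), 20.9 CPM (13.8 to 26.9) and 51.2 CPM (29.7 to 69.5). edgeR called 1 of the 6 higher and 1 lower in ABpI F/+ than in Ctrl (median difference -0.55), 4 higher than Ctrl in ABpI F/F livers (median 2.43) and 5 lower in ABpI F/+ than in ABpI F/F livers (median -2.15). The 8 T, B and NK cell markers, of which *Cd79a* was the most abundant, had average sums of 4.01, 1.39 and 7.14 CPM. Of these, edgeR called 3 lower in ABpI F/+ than in Ctrl livers and 1 higher than Ctrl in ABpI F/F livers. Between the mutant genotypes, 5 were called lower in ABpI F/+ livers. The 6 dendritic cell markers, of which *Clec9a* was the most abundant, had average sums of 7.68, 7.61 and 9.47 CPM. Here 2 were called lower in ABpI F/+ than in Ctrl and 4 lower in ABpI F/+ than in ABpI F/F livers.

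The 4 red blood cell markers with a read, chiefly *Hba-a1*, averaged 73.3 CPM in Ctrl, 166 CPM in ABpI F/+ and 85.1 CPM in ABpI F/F mice. The 5 mesothelium markers, of which *Msln* was the most abundant, had average sums of 4.12, 3.43 and 6.26 CPM. The 5 exocrine pancreas markers, chiefly *Cela1*, averaged 19.7, 13.2 and 24.3 CPM, with *Cpa1* and *Prss2* at no more than 3 counts in any mouse. Of the 4 adipocyte markers, *Cfd* was the most abundant, and *Adipoq*, *Plin1* and *Lep* had no more than 3 counts in any mouse. The 8 hepatocyte markers summed to 115019 CPM in Ctrl, 174206 in ABpI F/+ and 158141 CPM in ABpI F/F mice on average, chiefly from *Alb*. The other 7 summed to 25860 ± 2017 CPM (SD, n = 6), 20423 ± 3798 (n = 6) and 14032 ± 4042 (n = 3). BG38, at 109825 CPM, lay within the Ctrl range (102621 to 131271), BG90 had 165883 CPM and BG183 198716 CPM. Of the 8 markers edgeR had 1 called higher and 1 lower in ABpI F/+ than in Ctrl (median difference -0.06), 3 lower than Ctrl in ABpI F/F livers (median -0.67) and 2 higher in ABpI F/+ than in ABpI F/F livers (median 0.57).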
